A study of Ovis aries with 6 samples.

Results

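The genes described here encode the proteins of the cytosolic ribosome. They were taken from the gene table by symbol, as every gene named RPL or RPS followed by a digit or by P, together with RPSA, leaving out the RPS6K kinases. The rule gave 66 of the 23144 genes listed, of which 41 encode proteins of the large subunit and 24 proteins of the small subunit. The remaining gene, RPS19BP1, matched by its name only: it encodes a protein that binds RPS19 and is not a subunit, and it is kept apart below. RPSA was counted only on rows with a locus number, which are described further on. All 66 genes had enough reads to be tested.

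The libraries were made from poly(A)-containing RNA of longissimus muscle, the long muscle of the back, of females aged 1 year. There were 3 Qianhua Mutton Merino (QHMM) sheep, a breed raised for mutton and wool, and 3 Small Tail Han (STH) sheep, a local Chinese breed. All were raised in the same environment, and 1 library was made per animal. According to the paper, animals fasted before they were weighed ahead of slaughter, and it names no other treatment. The comparison is STH vs. QHMM throughout, and it asks whether the genes of the protein synthesis machinery were expressed at different levels in muscle of breeds that differ in meat yield.

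The ribosome translates mRNA in the cytoplasm. Its small subunit reads the codons and its large subunit joins the amino acids, and each subunit is a folded ribosomal RNA covered by many small basic proteins. Nearly every protein is present in a single copy per ribosome, and the mRNAs of these genes are usually made in similar and large amounts in every cell type. They belong to the TOP mRNAs, which begin with a tract of pyrimidines and whose translation is controlled through the kinase complex mTORC1. Mammalian genomes also carry many processed copies of these genes, most of them inactive. A few functional paralogs are known, among them RPL3L, which replaces RPL3 in part of the ribosomes of skeletal and heart muscle.

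Counts on genes summed to 10982191 to 14334544 per library (median 13044142). Levels of marker genes are given as CPM, counts scaled to a common library total after correction by the TMM factors. By these factors edgeR corrects library totals for composition. The markers of muscle fibres (7 of 8 listed genes in the table, none at 0) summed to between 116478 and 229761 CPM. The label of the tissue thus held in all libraries. These sums were highest in QHMM replicate 2 and STH replicate 3, at 210622 and 229761 CPM. The TMM factors were lowest there, at 0.852 and 0.853 against 1.01 to 1.197 in the other 4 libraries. Because the sums were divided by these factors, a low factor itself raises the sum, and the 2 observations are not independent. Results below are therefore also given without these animals where they moved. Fewer cells of a type and less RNA per cell cannot be told apart in such tissue samples.

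The ribosomal protein genes were among the more abundant genes of the muscle, but their levels differed widely. On the RPKM scale, which corrects for gene length and library total, the median of the 41 large-subunit genes was 245 and that of the 24 small-subunit genes 371, against 5.18 over all tested genes. RPLP0, the protein at the base of the stalk that recruits the elongation factors, had the highest mean RPKM, 2257, and supplied 19.9% to 22.0% of all large-subunit counts in every library. RPL31 (1582) and RPL8 (1225) followed among the large-subunit genes, and RPS7 (1534), RPS18 (1038) and RPS20 (1030) led the small-subunit genes. At the other end were RPL22L1 (3.53), RPL12 (4.08) and RPL7L1 (8.69) of the large subunit and RPS15A (1.03), RPS25 (29.9) and RPS23 (35.2) of the small subunit. The upper decile of the gene levels stood 60.5-fold above the lower decile in the large subunit and 22.2-fold in the small subunit.

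**Figure D1:**
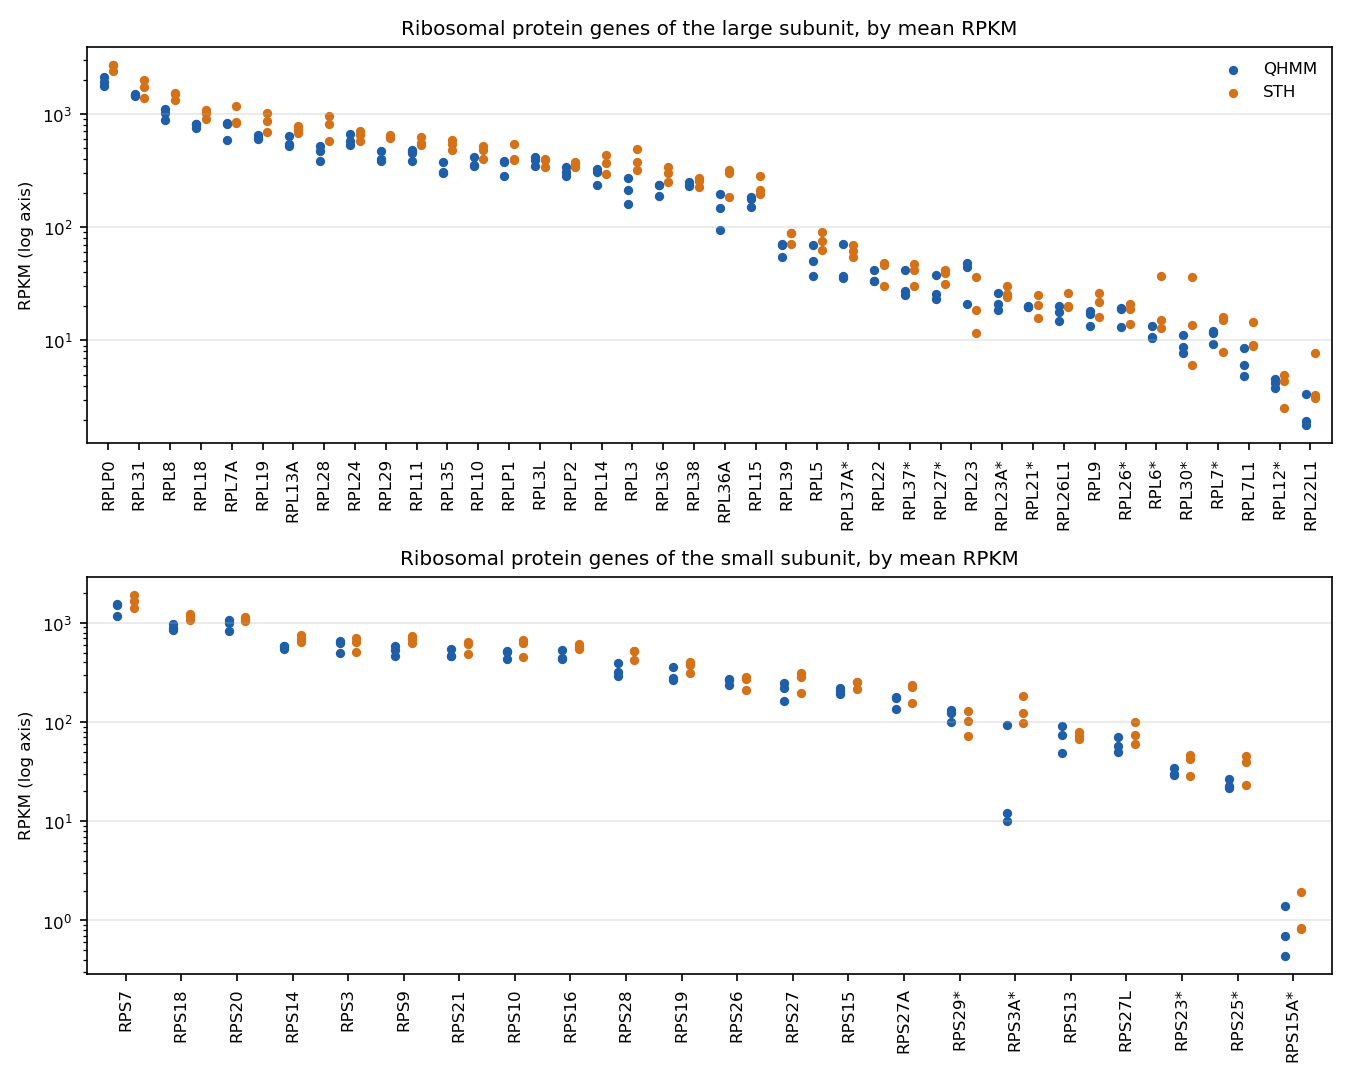
RPKM of 40 large-subunit and 22 small-subunit genes in the 6 libraries on a log axis, ordered by mean RPKM, with QHMM replicates in blue, STH replicates in orange, the large subunit above and the small subunit below. Levels run from a mean of 2257 (RPLP0) to 1.03 (RPS15A), and an asterisk after a name marks the 15 genes whose row holds under 20% of the counts of all rows named for that protein.

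Many of the low values belonged to proteins whose reads were counted on other rows. In addition to the 66 genes, 705 rows of the table with another symbol were named for a cytosolic ribosomal protein, 125 by the symbol of their best match and 580 by their description. Of these, 703 carried a locus number, the other 2 were BBC1 (RPL13) and OVUBQ-L40 (RPL40), and 299 were described as pseudogenes. Reads were present on 503 of them, with 1209604 counts over the 6 libraries beside 1450638 on the 66 genes, so the genes themselves held 54.5% of the sum. The gene's own row held less than 50% of its protein's counts in 24 of the 66 and less than 20% in 15. These 15 were RPL6, RPL7, RPL12, RPL21, RPL23A, RPL26, RPL27, RPL30, RPL37 and RPL37A of the large subunit and RPS3A, RPS15A, RPS23, RPS25 and RPS29 of the small subunit. Their median RPKM was 24.4, against 411 for the other 51.

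RPL12, which lies near the stalk, had 281 counts in all on its own row and 16720 on 9 other rows, 15590 of them on LOC101109380, so that its own row held 1.65%. RPL37A, a small zinc-binding protein, had 2073 counts on its own row, which was 8.21% of the total, and LOC101121371 had 19930. By contrast, RPL8, RPL26L1, RPL3L and RPS27L had no other row of that name. Which of these rows is the transcribed copy was not tested, and copies that share reads could be told apart only where a read mapped to a single place. When all rows named for a protein were summed, the median RPKM became 417 for the large and 608 for the small subunit, and the ratio of the upper to the lower decile became 15.3 and 3.53. After summing, RPL37A stood at 886 RPKM, RPS3A at 726, RPL23A at 676 and RPL12 at 338. RPS15A remained the lowest small-subunit protein, at 56.1.

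Together, the ribosomal protein genes took a larger share of the counts in STH than in QHMM. Large-subunit genes held 1.07%, 0.931% and 1.07% of all counts in the QHMM animals (replicates 1 to 3), and 1.41%, 1.43% and 1.23% in the STH animals. Small-subunit genes held 0.650%, 0.548% and 0.656% in QHMM and 0.827%, 0.787% and 0.680% in STH. For both subunits, every STH library was above every QHMM library, and the lowest value belonged to QHMM replicate 2. The means were 1.02% ± 0.0809 (SD, n = 3) and 1.36% ± 0.108 (SD, n = 3) for the large subunit and 0.618% ± 0.0606 (SD, n = 3) and 0.765% ± 0.0760 (SD, n = 3) for the small subunit, log2 ratios of 0.41 and 0.31. Without QHMM replicate 2 and STH replicate 3 the log2 ratios were 0.41 and 0.31 again. Exact (Clopper-Pearson) 95% intervals of the single shares reached at most 0.00704 percentage points to either side, which covers counting error only.

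A share depends on what the most abundant genes take. With the 20 most abundant genes left out of the totals the log2 ratios were 0.35 and 0.25. On TMM-normalized counts, the QHMM sums were 131428, 135829 and 129487 for the large subunit and 79857, 79994 and 79235 for the small subunit. The corresponding STH sums were 146297, 161094 and 179624 for the large and 85940, 88656 and 99112 for the small subunit. On this scale the QHMM animals were nearly alike, the STH animals spread more widely, STH replicate 3 was highest, and the breeds again did not overlap. The log2 ratios of the normalized means were 0.30 and 0.20. Counts of the large subunit divided by those of the small subunit gave ratios of 1.65, 1.70 and 1.63 in QHMM, while STH had 1.70, 1.82 and 1.81. With all 705 other rows included, ribosomal proteins made up 3.03% ± 0.268 (SD, n = 3) of the counts in QHMM and 3.89% ± 0.398 (SD, n = 3) in STH. No test was made on these sums, because the genes were chosen with earlier results of these libraries known.

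**Figure D2:**
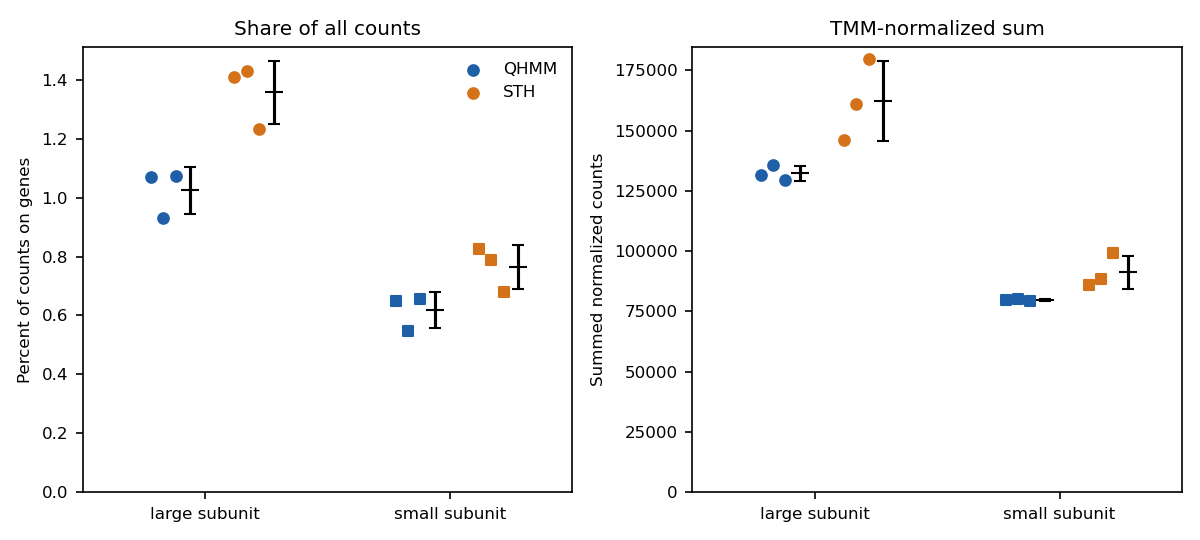
Summed ribosomal protein genes in each library as a percent of all counts on genes (left) and as TMM-normalized counts (right), with large-subunit sums as circles and small-subunit sums as squares. Horizontal bars with whiskers are means ± SD over 3 animals; each STH point lies above each QHMM point of the same subunit, by log2 ratios of 0.41 and 0.31 in the shares and 0.30 and 0.20 in the normalized sums.

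Gene by gene, no ribosomal protein gene passed the test. None of the 66 was called by edgeR's quasi-likelihood F test at a false discovery rate (FDR) below 0.05 and a difference of more than 1.5-fold in either direction, where 3.45% of the 12506 tested genes were called (1.62% higher and 1.83% lower in STH). The lowest FDR among them was 0.112 (RPL3). Before adjustment, 7 had p below 0.05, of which 6 were higher in STH (RPL3, RPL36A, RPL35, RPS3A, RPL7L1 and RPL28) and 1 was lower (RPL23), where 9.43% of all tested genes were higher and 9.72% lower by that measure. DESeq2 called 1, RPL3, at an adjusted p of 0.0354, where it called 7.78% of the tested genes. It gave 7 of the 66 genes an unadjusted p below 0.05, against 2300 of the 12506 tested genes. The SEs of the log2 fold changes ranged from 0.20 to 0.68 with a median of 0.23, so differences of the size seen in the sums were about as large as the SE of a single gene.

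The fold changes of the genes lay mostly on one side of 0. Of the 66, 55 had a log2 fold change above 0 (83.3%, against 51.8% of all tested genes), 35 of 41 in the large subunit and 20 of 24 in the small subunit. The median was 0.25 in the large subunit (quartiles 0.11 and 0.42) and 0.19 in the small subunit (quartiles 0.12 and 0.28), against 0.02 over all tested genes (quartiles -0.33 and 0.34). Scaling by library totals alone moved the median of all genes to 0.14, and relative to the median of all genes the settings tried gave 0.17 to 0.31 for the large and 0.12 to 0.25 for the small subunit. Without QHMM replicate 2 and STH replicate 3, 55 genes were again above 0 and the medians were 0.21 and 0.15. The genes are short, with a median length of 657 bases against 1953 over the tested genes, and 59 of 66 lay in the shortest quartile, up to 1239 bases. The median log2 fold change of all genes in that quartile was 0.01, and of the 59 it was 0.22.

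In 18 of the 66 genes (27.3%) every STH library was above every QHMM library, where 13.0% of the tested genes were so ordered, and in 2 (3.03%) every STH library was below, where 11.7% were. The 18 comprised 13 large-subunit genes, among them RPLP0, RPL3, RPL5, RPL9, RPL10, RPL14, RPL15, RPL19 and RPL36A, and 5 small-subunit genes, among them RPS7, RPS9, RPS25 and RPS27A. The 2 were RPS26, with a log2 fold change of -0.13 (SE 0.20), and RPS19BP1, the binding protein, with -0.40 (FDR 0.356, SE 0.22). Genes with log2 fold changes near 0 included RPL24 (0.02), RPL38 (-0.05) and RPS3 (-0.07), all of which had SEs of 0.20 to 0.22.

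**Figure D3:**
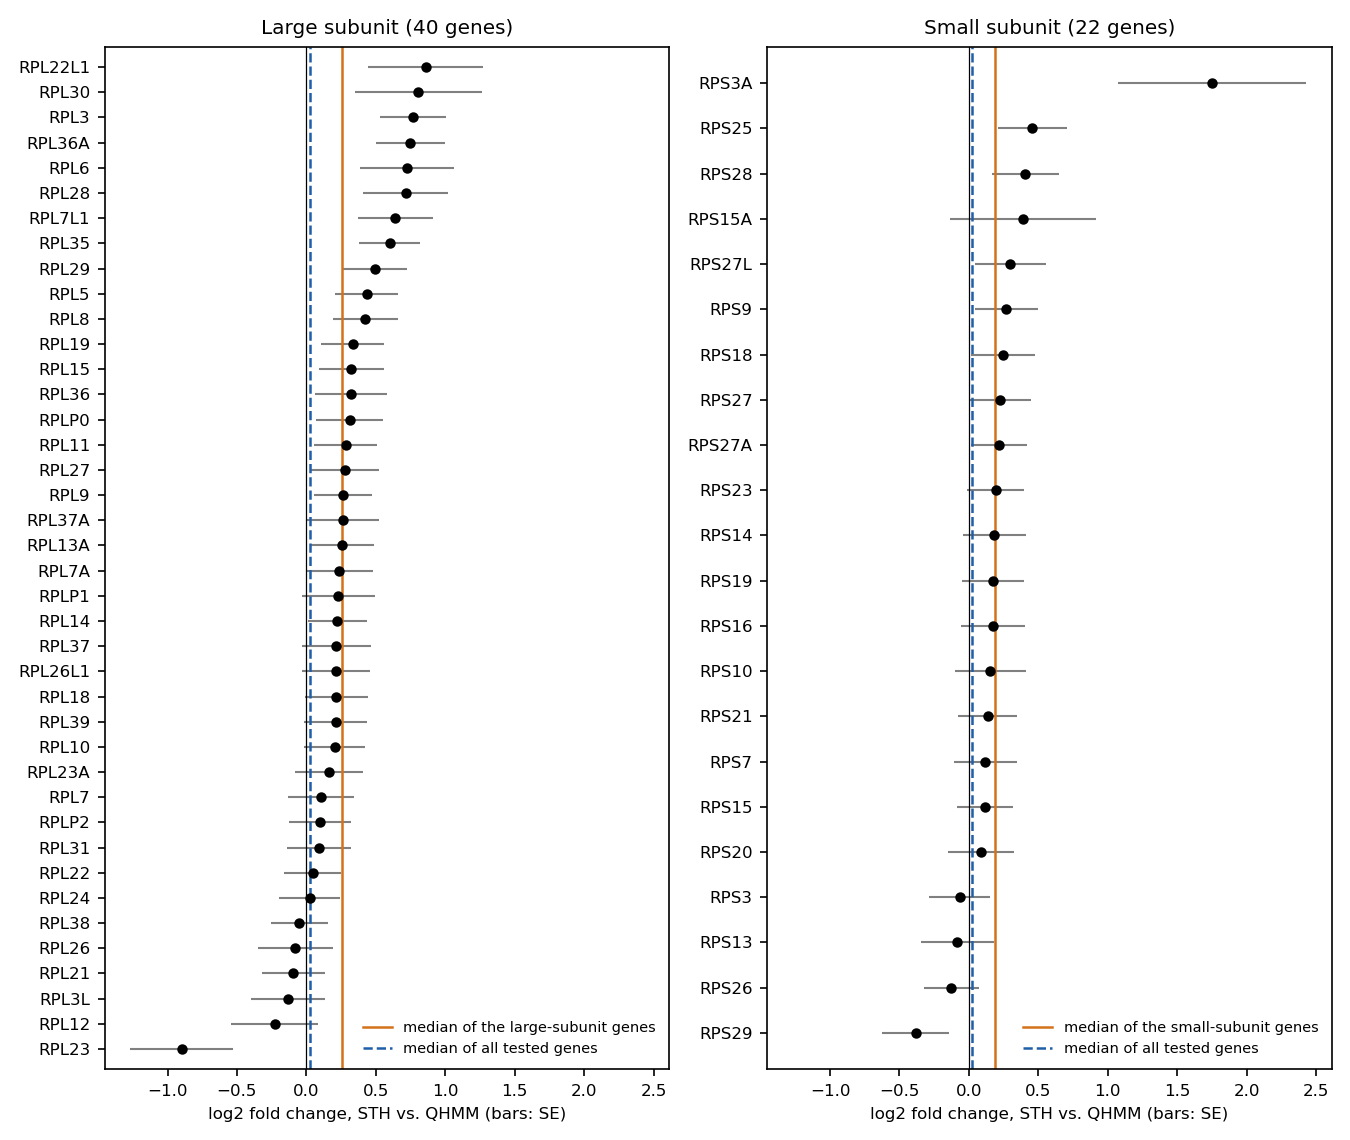
log2 fold change (STH vs. QHMM, edgeR) of 40 large-subunit genes (left) and 22 small-subunit genes (right), with bars of 1 SE. The orange line marks the median of all tested genes of the subunit (0.25 and 0.19) and the dashed blue line that of all tested genes (0.02); the points above 0 number 34 and 18.

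The large-subunit genes with the largest differences were of several kinds. RPL3, which lies near the site where peptide bonds form, had 4279, 2975 and 3305 normalized counts in QHMM and 6581, 5395 and 5993 in STH. All 3 STH animals were above all QHMM animals, with a log2 fold change of 0.77 (FDR 0.112, SE 0.24). RPL36A had 975, 747 and 1288 normalized counts in QHMM and 1800, 1810 and 1448 in STH, a log2 fold change of 0.75 (FDR 0.130, SE 0.25). The breeds did not overlap in RPL36A either. RPL35, which lies at the exit of the tunnel through which the new protein leaves, had 1631, 1581 and 1297 in QHMM and 2002, 2359 and 2469 in STH, a log2 fold change of 0.60 (FDR 0.165, SE 0.22). When the rows of each protein were summed the values were 0.75 for RPL3, 0.56 for RPL36A and 0.36 for RPL35.

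RPL28 had 4736, 4148 and 4140 normalized counts in QHMM and 4436, 6774 and 10160 in STH, a log2 fold change of 0.71 (FDR 0.231, SE 0.30). Its STH animals differed among themselves by more than the breeds did, with replicate 1 inside the QHMM range and replicate 3 highest, and without STH replicate 3 the value was 0.37. RPL8 had a log2 fold change of 0.42 (FDR 0.359, SE 0.23) and RPL29 one of 0.50 (FDR 0.271, SE 0.23), both without overlap of the breeds.

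The stalk of the large subunit is built of RPLP0 and of dimers of RPLP1 and RPLP2, and binds the elongation factors. RPLP0 had 26197, 28436 and 28451 normalized counts in QHMM and 31040, 33637 and 38418 in STH, a log2 fold change of 0.31 (FDR 0.528, SE 0.24). RPLP1 and RPLP2 had log2 fold changes of 0.23 (SE 0.26) and 0.10 (SE 0.22), and in both the breeds overlapped. Of the 3 stalk genes only RPLP0 had all STH animals above all QHMM animals, and none had an FDR below 0.528.

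In the small subunit, RPS3A stood apart. Its own row had 130, 129 and 993 normalized counts in QHMM and 1688, 966 and 1563 in STH, a log2 fold change of 1.75 (FDR 0.187, SE 0.68). QHMM replicate 3 lay within the range of the STH animals, and QHMM replicates 1 and 2 about an order of magnitude below it. Without QHMM replicate 3 RPS3A was called, with a log2 fold change of 3.44. That row held 11.7% of the counts named for RPS3A, and another row, LOC101116132, held 40488 of the remaining 43671. When all rows were summed, RPS3A had 6972, 5647 and 8787 normalized counts in QHMM and 9233, 9039 and 7327 in STH. The summed log2 fold change was 0.26 (FDR 0.634, SE 0.26), and the breeds overlapped.

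The same was seen in other genes with a minor row of their own. RPL30 had 50.6, 54.0 and 64.4 normalized counts in QHMM and 178, 72.9 and 42.0 in STH, a log2 fold change of 0.81 (FDR 0.368, SE 0.45) that rested on STH replicate 1: without that animal it was 0.01. Its own row held 6.26% of the protein's counts, and the summed rows gave 0.15 (SE 0.22). RPL6 had 122, 182 and 122 in QHMM and 363, 160 and 178 in STH, 0.72 (FDR 0.275, SE 0.34) on its own row and -0.10 (SE 0.21) when summed, and without STH replicate 1 its own row gave 0.24. RPL23, the only gene lower in STH at an unadjusted p below 0.05, had 280, 156 and 297 in QHMM and 99.1, 208 and 87.2 in STH. Its own row gave -0.90 (FDR 0.212, SE 0.37) and the summed rows -0.13 (SE 0.22). That own row held 38.1% of the counts and was the largest single row of the protein, with 1180 counts against 1004 on LOC101111269. The FDRs of these 4 proteins on the summed rows were 0.634 to 0.855.

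**Figure D4:**
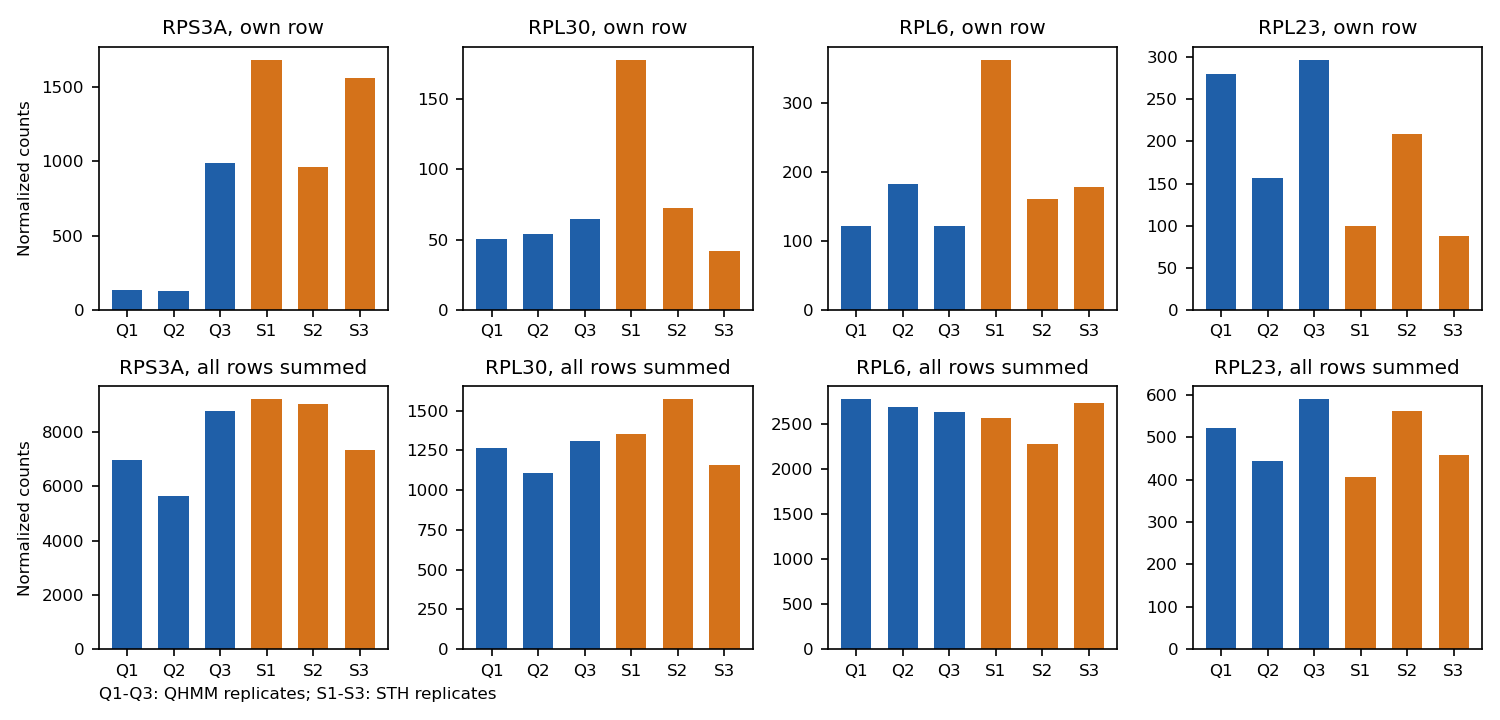
TMM-normalized counts of RPS3A, RPL30, RPL6 and RPL23 in the 6 libraries, on the gene's own row (top) and summed over all rows named for the protein (bottom), with QHMM replicates (Q1 to Q3) in blue and STH replicates (S1 to S3) in orange. Log2 fold changes of 1.75, 0.81, 0.72 and -0.90 on the own rows are 0.26, 0.15, -0.10 and -0.13 on the summed rows; each panel has its own vertical scale starting at 0.

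Across libraries the highest normalized count was a median of 1.79-fold above the lowest in the 15 genes whose row held under 20% of the counts, and 1.47-fold in the other 51, and the largest such range was 13.1-fold (RPS3A). The remaining small-subunit genes with the largest log2 fold changes were RPS25 with 0.46 (FDR 0.353, SE 0.25), RPS28 with 0.40 (FDR 0.394, SE 0.24), RPS15A with 0.39 (FDR 0.742, SE 0.53) and RPS29 with -0.38 (FDR 0.431, SE 0.24). RPS25, RPS15A and RPS29 again had minor rows, and their summed values were 0.15, -0.14 and 0.05. RPS15A had 24.0, 8.99 and 11.7 normalized counts in QHMM and 11.9, 30.8 and 17.2 in STH, close to the limit of what these depths resolve. RPS27A, which is made as a fusion with ubiquitin, had 1256, 1143 and 1263 in QHMM and 1380, 1551 and 1332 in STH, a log2 fold change of 0.22 (FDR 0.601, SE 0.20). Its breeds did not overlap, but the difference was of the size of its SE.

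Summing the rows gave no call either. Of the 66 summed proteins edgeR called 0, and 4 had an unadjusted p below 0.05 (RPL3, RPL22L1, RPL28 and RPL36A). Of all genes tested singly, 3.45% were called and 19.2% had such a p. A log2 fold change above 0 was found in 57, against 51.8% of all genes tested singly. In 14 every STH library was above every QHMM library (13.0% of all genes tested singly). In 2, RPS3 and RPS19BP1, every STH library was below (11.7%). The median log2 fold change was 0.20 in the large and 0.18 in the small subunit. A further 16 ribosomal proteins were counted only on rows with another symbol, RPSA and RPS6 among them. RPS6, the small-subunit protein that S6 kinase phosphorylates downstream of mTORC1, had 5183, 4302 and 4864 normalized counts in QHMM and 5908, 6249.5 and 6609 in STH, a log2 fold change of 0.39 (FDR 0.382, SE 0.22), without overlap. RPSA, also known as a laminin receptor, had 0.05 (FDR 0.936, SE 0.23).

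Of these 16 proteins 15 were above 0, against 51.8% of all genes tested singly. In 7 every STH library was above every QHMM library, against 13.0% of all genes tested singly. None was called, against 3.45% of all genes tested singly. RPL10A had the largest difference, with 3004, 3545 and 2946 normalized counts in QHMM and 4474, 6438 and 5187 in STH, a log2 fold change of 0.76 (FDR 0.112, SE 0.24). RPL13 had 0.52 (FDR 0.250, SE 0.23) and RPS4X 0.49 (FDR 0.225, SE 0.21). Of all 705 rows with another symbol, 245 could be tested singly. They include rows of proteins that also had a row of their own symbol. EdgeR called 3 of the 245, all up-regulated in STH, which was 1.22% against 1.62% of all tested genes. Of the 3, 2 were named for RPL10A (LOC101110574, log2 fold change 1.33, FDR 0.0194, and LOC101118057, 1.10, FDR 0.0376) and 1 for RPL17 (LOC101109676, 1.73, FDR 0.0459). All rows of RPL17 together gave a log2 fold change of 0.01 (SE 0.20). These rows were named after their values were seen.

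The balance of RPL3 and its muscle paralog RPL3L did not overlap between the breeds. RPL3L had 7625, 8479 and 6153 normalized counts in QHMM and 5183, 6583 and 8565 in STH, a log2 fold change of -0.13 (FDR 0.837, SE 0.27), and few reads of either lay on other rows, with own-row shares of 100% for RPL3L and 99.5% for RPL3. Per length, the RPKM of RPL3L divided by that of RPL3 was 1.54, 2.46 and 1.61 in QHMM and 0.681, 1.06 and 1.24 in STH. All STH animals were below all QHMM animals, and in STH replicate 1 RPL3 exceeded its paralog. The log2 ratio was lower by 0.93 in STH (QHMM mean 0.87 ± 0.37, STH mean -0.06 ± 0.45, SD, n = 3), with an exact two-sided permutation p of 0.1, the smallest that 3 animals against 3 can give. Leaving out single animals gave differences of -1.11 to -0.68, and without QHMM replicate 2 and STH replicate 3 the difference was -0.89. Together the pair had 11904, 11454 and 9458 normalized counts in the QHMM animals, and 11764, 11978 and 14559 in the STH animals, which overlapped.

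**Figure D5:**
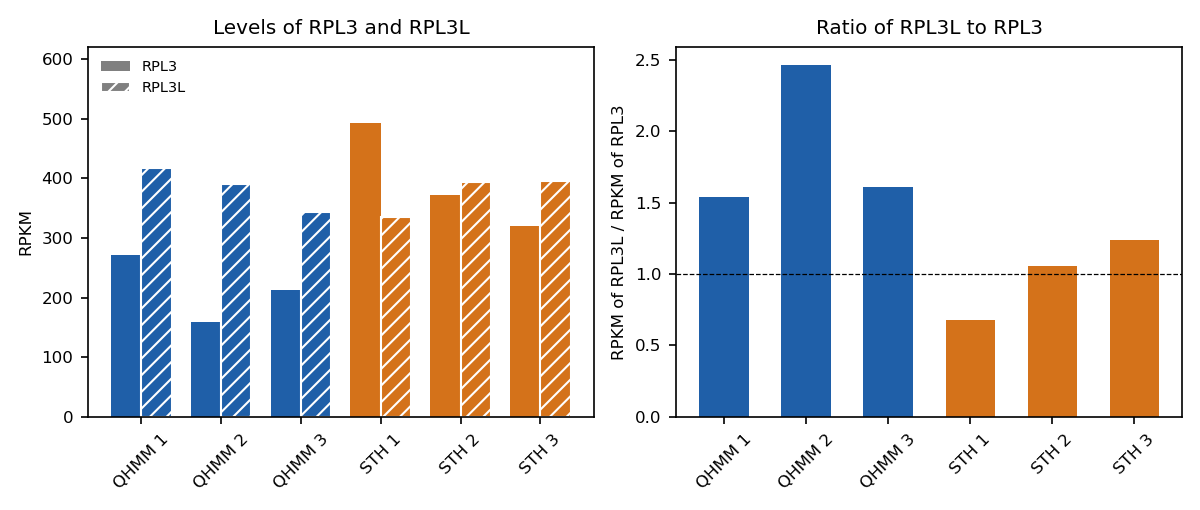
RPKM of RPL3 (plain bars) and of its muscle paralog RPL3L (hatched bars) in each library (left), and the ratio of RPL3L to RPL3 (right), with QHMM in blue and STH in orange. The dashed line marks a ratio of 1; the QHMM ratios are 1.54 to 2.46 and the STH ratios 0.681 to 1.24, without overlap.

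The other paralog pairs overlapped between breeds. RPL22L1 is a paralog of RPL22 and had 48.9, 33.7 and 25.4 normalized counts in QHMM and 38.05, 103 and 57.0 in STH, a log2 fold change of 0.86 (FDR 0.289, SE 0.41) that was 0.37 without STH replicate 2, while RPL22 had 0.05 (SE 0.20). The RPKM ratio of RPL22L1 to RPL22 was between 0.0422 and 0.0998 in QHMM and between 0.0646 and 0.166 in STH. RPL7L1, a paralog of RPL7 known from ribosome assembly, had a log2 fold change of 0.64 (FDR 0.224, SE 0.27). Its ratio to RPL7 ran from 0.526 to 0.708 in QHMM and from 0.557 to 1.13 in STH, but the own row of RPL7 held only 5.45% of that protein's counts. RPL26L1 and RPS27L had log2 fold changes of 0.22 (SE 0.24) and 0.30 (SE 0.26). The own row of RPL26, to which RPL26L1 is compared, also held only 12.6% of that protein's counts. Over the 5 pairs with both genes in the table the Benjamini-Hochberg adjusted exact permutation p was 0.333 for RPL3L with RPL3, RPL22L1 with RPL22 and RPL7L1 with RPL7, 0.625 for RPL26L1 with RPL26 and 0.90 for RPS27L with RPS27. RPL10 and RPL39 had log2 fold changes of 0.20 (SE 0.22) and 0.21 (SE 0.23).

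Factors that assemble the ribosome had larger log2 fold changes than its protein genes, with a median of 0.75. Of 70 listed ribosome assembly factors, most of which act in the nucleolus, 67 were tested, and edgeR called 6 of them, all up-regulated in STH, where 1.62% of all tested genes were up-regulated. DESeq2 called 16, where it called 7.78% of all tested genes in either direction. The log2 fold change was above 0 for 65 of the 67 (97%, against 51.8% of all tested genes). In 41 (61.2%, against 13.0% of all tested genes) every STH library was above every QHMM library. BRIX1, which takes part in assembly of the large subunit, had 43.7, 39.3 and 31.2 normalized counts in QHMM and 94.3, 214 and 88.2 in STH, a log2 fold change of 1.79 (FDR 0.0342, SE 0.38). NOB1, the nuclease that trims the RNA of the small subunit at its end, had 346, 486 and 249 in QHMM and 673, 1592 and 1038 in STH, 1.61 (FDR 0.0341, SE 0.34). PES1, which acts with BOP1 and WDR12 on the large subunit, had 303, 379 and 252 in QHMM and 579, 1089 and 835 in STH, 1.42 (FDR 0.0227, SE 0.27).

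The other 3 called assembly factors were NOP14, a factor of the small subunit, with a log2 fold change of 1.25 (FDR 0.0497), NOP2, a methyltransferase of ribosomal RNA, with 1.23 (FDR 0.0470), and the helicase DDX56 with 1.23 (FDR 0.0409). In all 6, STH replicate 2 was the highest library. WDR43 had 1.55 and missed the threshold with an FDR of 0.0528. The count of calls depended on single animals: leaving out QHMM replicate 1 or 3 or STH replicate 2 gave 0, leaving out QHMM replicate 2 or STH replicate 3 gave 2, leaving out STH replicate 1 gave 12, and there were 0 when QHMM replicate 2 and STH replicate 3 were both left out. The log2 fold changes of the 6 stayed between 0.87 and 2.02 in these fits.

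RNA polymerase I, which transcribes the ribosomal RNA genes, and its factors had 15 of 18 listed genes tested, with 0 called by edgeR or DESeq2. Of all tested genes, edgeR called 3.45% and DESeq2 7.78%. At an unadjusted p below 0.05, 4 (26.7%) were higher in STH, against 9.43% of all tested genes. The median log2 fold change was 0.55, 13 (86.7%, against 51.8% of all tested genes) were above 0, and the largest were TWISTNB with 0.81 (FDR 0.252, SE 0.36), POLR1C with 0.78 (FDR 0.137, SE 0.26) and POLR1E with 0.67 (FDR 0.197, SE 0.27). Of 19 tested regulators of TOP mRNAs and of ribosome production, 1 (5.26%) was called by edgeR, against 3.45% of all tested genes. EIF4EBP1, the inhibitor of the cap-binding protein eIF4E that mTORC1 inactivates, had 657, 939 and 530 normalized counts in QHMM and 1397, 1727 and 2122 in STH, and was up-regulated with a log2 fold change of 1.30 (FDR 0.0306, SE 0.27). This call was lost when QHMM replicate 1 or 3 or STH replicate 2 or 3 was left out, with log2 fold changes of 1.13 to 1.30 in those fits.

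MYC, a transcription factor of ribosome production, had 484, 157 and 39.98 normalized counts in QHMM and 1157, 1443 and 1057 in STH. The breeds did not overlap, with a log2 fold change of 2.42 (FDR 0.0667, SE 0.64), and without QHMM replicate 1 MYC was called with 3.61. LARP1, which binds the start of TOP mRNAs, had 1453, 1928 and 1752 in QHMM and 961, 1223 and 1022 in STH, a log2 fold change of -0.68 (FDR 0.120, SE 0.22), also without overlap. Of 19 other genes with TOP mRNAs, 14 were tested. EdgeR called 0 of these 14, where it called 3.45% of all tested genes. DESeq2 called 1 (PABPC1), where it called 7.78% of all tested genes. By edgeR, 3 (21.4%, against 9.43% of all tested genes) were higher in STH at an unadjusted p below 0.05. The median log2 fold change was 0.22, close to that of the ribosomal protein genes. The largest were NAP1L1 with 0.97 (FDR 0.203, SE 0.39), PABPC1, the poly(A)-binding protein, with 0.92 (FDR 0.0920, SE 0.27) and the elongation factor EEF2 with 0.52 (FDR 0.297, SE 0.25). NAP1L1 had only 27.4, 34.9 and 22.4 normalized counts in QHMM and 76.9, 56.4 and 31.2 in STH. The breeds overlapped in NAP1L1 but not in PABPC1 or EEF2.

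Markers of fibre types and of other cells differed between the same libraries. The slow-fibre markers (6 of 7 in the table, 3 down-regulated in STH, MYL2, TNNT1 and OMYHCS) summed to 30887 to 33736 CPM in QHMM and 11608 to 13958 CPM in STH, and the adipocyte markers (5 of 5, 4 down-regulated, PLIN1, LEP, ADIPOQ and CIDEC) to 115 to 386 and 51.7 to 79.9 CPM. Satellite cell markers (3 of 3, 1 up-regulated, CDH15) summed to 12.4 to 15.8 CPM in QHMM and 20.9 to 25.99 CPM in STH, fibroblast markers (4 of 6, 0 called) to 850 to 1379 and 368 to 757 CPM, and endothelial markers (3 of 5, 0 called) to 567 to 588 and 611 to 709 CPM. The fast-fibre markers (6 of 8, 0 called, TNNT3 at 0), at 51076 to 68910 and 35917 to 64739 CPM, and the leukocyte markers (5 of 6, 0 called), at 74.7 to 102 and 58.1 to 98.9 CPM, overlapped between breeds, and red blood cell markers (2 of 5, SLC4A1 at 0) stayed below 1 CPM. The part of these differences in the values of the ribosomal protein genes was not tested.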

How the data were processed

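Poly(A) RNA of longissimus muscle from 3 QHMM and 3 STH sheep was sequenced on an Ion Proton instrument, with 1 library per animal. The authors filtered the reads, mapped them to the sheep genome (Oar 3.1, also in the submitters' processing notes) and kept unique mapped reads, so a read that matches copies of a gene equally well could not be counted. They deposited raw counts per gene, and RPKM values made from them, which 23119 genes could be joined to. The aligner, the counting program, the use of strand and the annotation release are not given in the sources used here. Breeds and replicate numbers came from the sample titles.

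Counts were tested in R 4.3.3 with edgeR 4.0.16 (TMM, filterByExpr, glmQLFit and glmQLFTest, model with breed alone), and FDRs were adjusted by the Benjamini-Hochberg method over all 12506 tested genes. EBSeq, used in the study, was not installed. SEs were obtained from the fold change and the F statistic. Normalized counts are counts divided by the TMM-adjusted library size and scaled to the median of these sizes. RPKM was used for levels and in limma 3.58.1 as an alternative, and DESeq2 1.42.0 as another. The edgeR, DESeq2 and limma steps were tested on simulated data. Tables and plots were made in Python 3.11.15 with pandas 2.3.3 and matplotlib 3.10.9. Rows named for a ribosomal protein were found by their best-match symbol or description in the authors' table, leaving out mitochondrial ribosomal proteins. Ratios of paralogs were compared by exact permutation tests.

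The genes and lists were chosen with earlier results of these data known. Named in full are genes called, the 5 of each subunit with the largest fold changes, paralog pairs, stalk genes, RPSA, RPS6, RPS27A, the 3 highest and 3 lowest of each subunit, and of the other lists the genes called and the 3 largest. RPL6, RPL24, RPL28, RPL29, RPL35, RPL38, RPS3, RPS26, RPS19BP1, RPL13, RPL17 and RPS4X, and the genes given only as counted in a group, were named after their values were seen. With 14 settings on all libraries and 6 fits that left out 1 library, 2 were added after the data were seen: QHMM replicate 2 and STH replicate 3 left out together, and rows of the same protein summed. TMM-normalized sums beside the shares were also added then. Of the 66 genes, 3 are not reported here singly and were not drawn, but they remain in the counts, sums and medians.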

Additional observations from a re-analysis of the deposited data

How the results depend on the processing

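Directions of the group medians held in all settings, and the log2 ratios of the summed shares and of RPL3L to RPL3 moved by less than the spread between replicates. Large-subunit calls were 1 with DESeq2 (RPL3), and small-subunit calls were 1 with the replicate block and with the gene-length offset and block (RPS3A, 2.43 and 2.45), and 0 to 1 when single animals were left out. The replicate numbers name animals only: libraries with the same number had correlations of their deviations of 0.23, -0.04 and -0.13, not every library correlated best with its own number, and the block called 457 genes in place of 432. Medians of the large and small subunit were 0.36 and 0.31 with library totals, 0.35 and 0.29 with limma on log2(RPKM + 1), 0.36 and 0.30 with a pseudocount of 0.1, and 0.35 and 0.29 without the RPKM filter. These settings moved the median of all genes to 0.14, 0.12, 0.14 and 0.04.

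Assembly factors called numbered 16 with DESeq2 and with no filter on counts, 3 with library totals, 0 with limma and no filter, 0 without QHMM replicate 2 and STH replicate 3, and 0 to 12 when single animals were left out. Regulators of TOP mRNAs called were 2 with no filter, the block, the gene-length offset and block, or limma with either pseudocount, 0 without QHMM replicate 2 and STH replicate 3, and 0 to 1 when single animals were left out. Other TOP mRNA genes called were 1 with DESeq2. Over all genes 432 (203 up-regulated, 47.0%) were called, 973 with DESeq2, 806 with no filter, 250 with library totals (158 up-regulated, 63.2%), 346 with limma (212 up-regulated, 61.3%; 203 of 328, 61.9%, with a pseudocount of 0.1), 78 with limma and no filter (54 up-regulated, 69.2%), 131 to 535 without single animals and 11 without QHMM replicate 2 and STH replicate 3.

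Signs changed only in genes near 0 or with minor rows. RPL26 became 0.063 with library totals and with limma at a pseudocount of 1 with or without the filter, 0.066 at 0.1, 0.11 without QHMM replicate 2 and STH replicate 3, and 0.077 with rows summed. When single animals were left out, RPL26 ranged from -0.28 to 0.093, RPL22 from -0.061 to 0.12, RPL31 from -0.0094 to 0.17, RPL7 from -0.0038 to 0.27, RPLP2 from -0.0057 to 0.18, RPL3L from -0.33 to 0.015, RPS15A from -0.080 to 0.90 and RPS20 from -0.077 to 0.14. With QHMM replicate 2 and STH replicate 3 out, RPS20 was -0.10 and RPL12 0.055. With rows summed RPL12 was 0.13, RPL6 -0.095, RPS15A -0.14 and RPS29 0.055. RPS15A had no value under the filters of at least 10 counts or an RPKM of at least 1. The causes were not tested. Depth limits RPS15A, which had 109 counts in all.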
